A study of Homo sapiens with 15 samples.

Results

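The 10 genes described here, BRCA1, PALB2, RAD51C, BARD1, BRIP1, ATM, FANCA, FANCC, FANCD2 and RAD51B, act in homologous recombination and in the Fanconi anaemia pathway. They were taken as a named set of 19812 protein-coding genes, and all 10 were among the 16799 genes with enough reads in the gene body to be tested (a mean of at least 50 reads per library). A gene's windows were those of the count table with a midpoint inside its canonical transcript on hg19, and its flanks were the windows within 250 kb on either side. The gene bodies held 1786 windows of 1 kb in all. The rule that defines the set uses gene names and positions, and no measured value.

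Cisplatin binds the N7 of purines and mostly joins 2 adjacent guanines on the same strand, while a minority of its adducts cross-link both strands. The Fanconi anaemia core complex, which includes FANCA and FANCC, places ubiquitin on FANCD2 at a fork stalled by such a cross-link, and the break made during unhooking is then repaired by homologous recombination. BRCA1 with its partner BARD1, PALB2, RAD51B and RAD51C act in the strand exchange of that repair, BRIP1 is a helicase that binds BRCA1, and the kinase ATM signals double-strand breaks. Loss of this pathway sensitises ovarian tumour cells to platinum. Pt-exo-seq reads the DNA of these genes as a target of the drug, and gives neither their expression nor the activity of their proteins.

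On hg19 (GRCh37) 3 of the genes lie on the long arm of chromosome 17, BRCA1 at chr17:41196312-41277381, RAD51C at chr17:56769963-56812972 and BRIP1 at chr17:59756500-59940889. PALB2 (chr16:23614486-23652631) and FANCA (chr16:89803957-89883055) lie on different arms of chromosome 16. The others are BARD1 (chr2:215590370-215674407), ATM (chr11:108093794-108239829), FANCC (chr9:97861336-98079991), FANCD2 (chr3:10068121-10143616) and RAD51B (chr14:68286496-68944810). Other protein-coding genes overlap ATM (C11orf65 among them), FANCA (ZNF276), FANCC (AOPEP) and FANCD2 (FANCD2OS), so that counts there belong to both.

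Pt-exo-seq libraries were made from the DNA of PEO1, an ovarian cancer line that is sensitive to cisplatin, and of PEO4, its resistant counterpart. Sheared DNA was digested by exonucleases that stop at platinum adducts, and the surviving strands were sequenced. Cells were untreated (0 µM) or exposed to 16 µM cisplatin in both lines for 5 h, and PEO4 was also exposed to 32 µM, with 3 libraries in each of the 5 groups. Each line is a single cell line, and nothing in the labels says that the 3 libraries of a group came from separate cultures, so p-values measure only the spread between these libraries. The study compared the lines at an equal dose and at 16 µM in PEO1 against 32 µM in PEO4, which it chose to match the adduct load. Libraries held 27705392 to 56643611 counts (median 33073916). No library of undigested DNA was used here, so that in a treated library the number of copies of a gene and the number of adducts per copy cannot be told apart from a count. The untreated libraries received no cisplatin, and what sets their counts besides the number of copies was not tested. Levels below are reads per 1 kb window after scaling each library to the median total, a level that is per length and can be set between genes. The log2 differences from edgeR use TMM scaling in addition, so that a small one can differ in sign from the levels.

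Libraries differed in base composition, both between and within groups. The slope of a library's level against the GC content of gene bodies, relative to the mean library, ran from -0.35 (log2 per 10 percentage points of GC) in untreated PEO1 replicate 1 to 0.23 in PEO1 16 µM replicate 1. PEO4 16 µM replicate 1 was also low, at -0.27. The slopes followed the untreated lines, with -0.35, -0.098 and -0.12 in the 3 PEO1 libraries and 0.17, 0.045 and 0.18 in the 3 PEO4 libraries, which did not overlap. Values from the same fit with an offset for GC content are therefore given beside each line difference whose call it changed. Where only the sign changed, they are given for some genes. Among the others, the uncalled body differences of ATM (-0.091 to 0.0053) and FANCC (-0.0084 to 0.016) turned sign. So did the flank difference of PALB2 (0.028 to -0.14). PEO1 16 µM replicate 1 had the largest share of windows without a read in the whole table, 29.7%, against 14.1% to 24.3% in the others. These values are given again beside the genes they touch.

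The sequence in the gene bodies shows how unevenly the drug's preferred target is spread over the 10 genes. Adjacent guanines on either strand, read as GG or CC on the plus strand, took up 14.5% of the base steps of FANCA and 7.94% of those of BARD1, with a median of 11.9% over all tested genes. The GC content of the bodies ran from 36.1% in BRIP1 to 50.5% in FANCA.

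Averaged over the 15 libraries, the levels of the 10 gene bodies fell into a broad middle and 3 exceptions. BRIP1 had the highest level, 16.9 reads per window, above 92.4% of all tested genes. FANCC and FANCA had the lowest, 6.51 and 6.76 reads, above 14.5% and 17.2% of genes. BRCA1 (11.9), PALB2 (12.1), BARD1 (11.1), ATM (11.7), FANCD2 (11.9), RAD51B (12.8) and RAD51C (10.2) lay around the median of all tested genes, 11.9 reads. The order within that middle was not separable, since the 15 libraries of BRCA1 ran from 10.7 to 13.3 and those of ATM from 10.0 to 12.7. RAD51C belonged to the middle, and BRIP1 stood first, only as an average over both lines. Over the PEO1 libraries alone BRIP1 (13.4) and RAD51B (13.3) had nearly the same level.

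The exceptions also stood apart from genes of like base composition. Over the 1870 other genes within 1 percentage point of the GC content of FANCC the median level was 11.8, and FANCC stood at 0.553 of it. FANCA stood at 0.538 and BRIP1 at 1.47 of the medians of their own GC-matched genes, while BRCA1, PALB2, ATM and FANCD2 were between 1.00 and 1.02. For BRIP1 this average was carried by PEO4, with a mean of 19.2 reads over its 9 libraries against 13.4 over the 6 of PEO1.

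**Figure D1:**
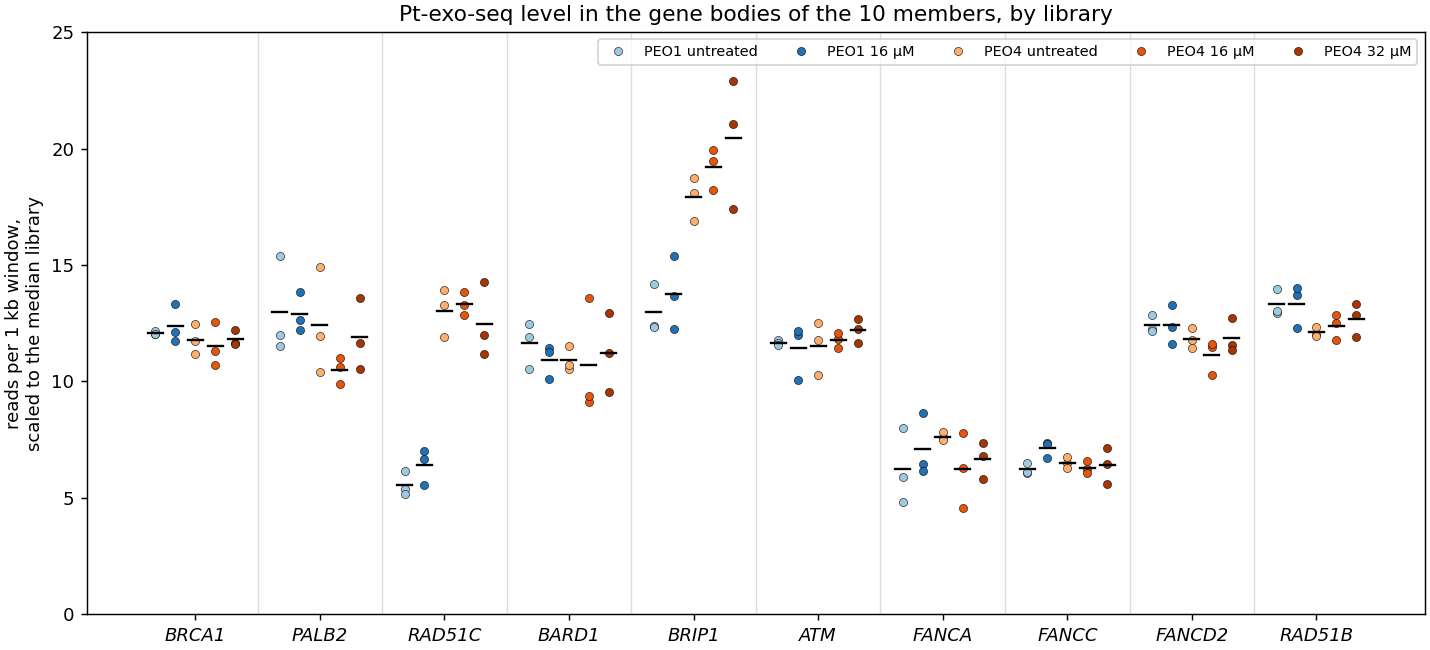
Level of each gene body in every library (vertical axis, reads per 1 kb window scaled to the median library, from 0), with 5 columns of points per gene for the groups in the legend and a bar at the mean of 3 libraries. RAD51C sits between 5.14 and 7.02 in all 6 PEO1 libraries and between 11.2 and 14.3 in all 9 PEO4 libraries, BRIP1 also separates the lines, and FANCA and FANCC are low in both.

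The untreated lines were compared first, since they hold the background on which a cisplatin response is read. RAD51C and BRIP1 were higher in PEO4, by 2.23-fold and 1.31-fold, and the other 8 genes did not pass the test. RAD51C, a gene found mutated in some hereditary ovarian cancers, had levels of 5.38, 6.15 and 5.14 reads per window in the 3 untreated PEO1 libraries and of 13.9, 11.9 and 13.3 in the 3 untreated PEO4 libraries. The lines did not overlap. The log2 difference in edgeR's quasi-likelihood test was 1.15 ± 0.13 (SE, n = 3 per line, adjusted p = 4.38e-07). BRIP1, the BRCA1-associated helicase, had levels of 14.2, 12.4 and 12.3 in untreated PEO1 and of 16.9, 18.1 and 18.7 in untreated PEO4, again without overlap. Its log2 difference was 0.39 ± 0.12 (SE, n = 3 per line, edgeR adjusted p = 0.0215). The call for BRIP1 was lost without untreated PEO1 replicate 2 or 3 or untreated PEO4 replicate 2 or 3, with log2 differences of 0.33, 0.34, 0.37 and 0.37 and edgeR adjusted p of 0.118, 0.0981, 0.0699 and 0.0774 in that order.

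The background for this count was wide. Of all 16799 genes, 21.7% differed between the untreated lines (2175 higher and 1474 lower in PEO4), so that 2 of 10 was near the genome's share. The median log2 difference over the 10 genes was -0.10, and over all genes 0.0031. The untreated libraries of the lines did not overlap in 3 of the 10 gene bodies, and in 40.2% of all tested genes. The values of the uncalled genes ran from -0.21 in RAD51B, the longest gene of the set at 658 kb, to 0.23 in FANCA. RAD51B had 13.98, 12.94 and 13.002 reads in untreated PEO1 and 12.04, 12.33 and 11.955 in untreated PEO4, which did not overlap. Its difference of -0.21 ± 0.098 missed the threshold after adjustment (edgeR adjusted p = 0.137). It was called when only the untreated libraries entered the fit (adjusted p = 0.0158 in edgeR). Its flanks were called with the GC offset (-0.16, edgeR adjusted p = 0.0405).

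RAD51C and BRIP1 were also the genes called between the lines after treatment, in comparisons added after the data were seen. RAD51C had 7.02, 5.54 and 6.67 reads in PEO1 at 16 µM. In PEO4 it had 12.8, 13.3 and 13.8 at 16 µM and 14.3, 11.99 and 11.2 at 32 µM. All 9 PEO4 libraries stood above all 6 PEO1 libraries. BRIP1 had 12.3, 15.4 and 13.7 reads in PEO1 at 16 µM, 19.5, 18.2 and 20.0 in PEO4 at 16 µM, and 17.4, 22.9 and 21.0 in PEO4 at 32 µM. Its lowest PEO4 library, at 16.9, was above its highest PEO1 library, at 15.4. Complete separation of the lines over the 15 libraries was found in 2 of the 10 genes and in 14.4% of all tested genes. Between treated libraries the log2 differences in edgeR were 1.07 ± 0.13 (SE) for RAD51C and 0.50 ± 0.12 for BRIP1 with 16 µM in both lines (adjusted p of 1.18e-06 and 0.00340), where 17.7% of all genes were called. At that dose PALB2 (13.9, 12.6 and 12.2 reads in PEO1 against 10.6, 10.99 and 9.87 in PEO4) and FANCC (7.34, 7.29 and 6.72 against 6.23, 6.59 and 6.06) did not overlap in the other direction, and were not called. How many of all genes did not overlap at that dose was not counted. At 32 µM in PEO4 against 16 µM in PEO1, RAD51C and BRIP1 differed by 1.00 ± 0.13 and 0.61 ± 0.12 (edgeR adjusted p of 3.48e-06 and 0.000470). In that comparison 17.8% of all genes were called.

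The flanks, which hold 555 or 556 windows a gene, showed whether a difference was limited to the gene. Around RAD51C the flanking level was 5.84, 6.20 and 6.02 reads in untreated PEO1 and 13.1, 12.7 and 13.3 in untreated PEO4, a log2 difference of 1.04 ± 0.046 (SE, n = 3 per line, edgeR adjusted p = 2.13e-09). Around BRIP1 it was 12.5, 12.6 and 12.3 in untreated PEO1 and 18.5, 18.0 and 18.5 in untreated PEO4, a log2 difference of 0.48 ± 0.047 (edgeR adjusted p = 8.81e-07). The flanks of both genes therefore differed by about as much as the genes themselves, and the flanks of the other 8 were not called. Among all 19778 genes with tested flanks 34.5% were called. The untreated lines did not overlap in the flanks of 5 of the 10 genes. That share was not counted over the flanks of all genes, and in gene bodies it was 40.2% of all tested genes, so nothing is read from it. In the treated libraries the flank differences were 1.02 and 0.94 for RAD51C and 0.46 and 0.57 for BRIP1 (the first at 16 µM in both lines, the second at 32 µM in PEO4), where 24.4% and 24.9% of genes were called.

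**Figure D2:**
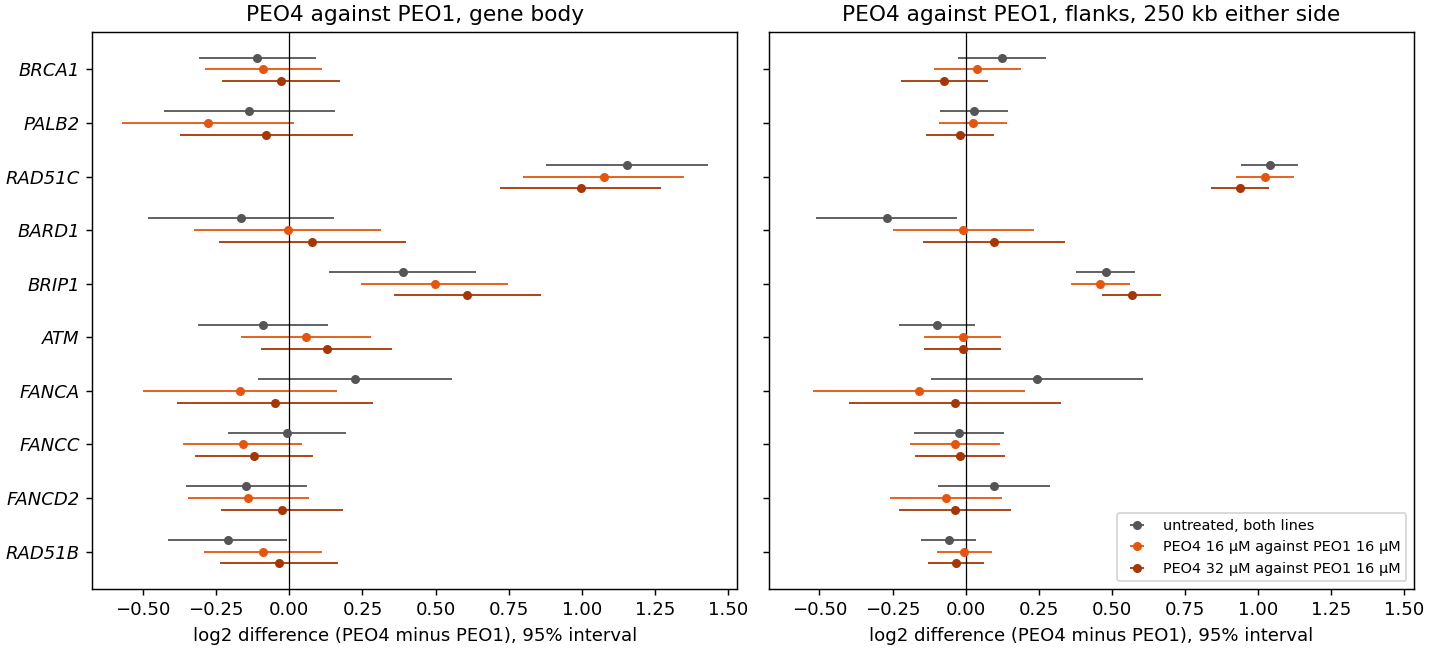
PEO4 minus PEO1 for each gene (horizontal axis, log2 difference from edgeR with its 95% interval), for the gene body on the left and its flanks on the right, in untreated libraries and in both treated comparisons. RAD51C lies near 1 and BRIP1 near 0.5 in all 3 comparisons on both sides, and the intervals of most of the other genes include 0.

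The difference at both genes extended well beyond 250 kb. RAD51C and BRIP1 lie 2.94 Mb apart on the long arm of chromosome 17, and BRCA1 lies 15.5 Mb from RAD51C on the same arm. In 50 kb bins around RAD51C the untreated log2 difference was between 0.96 and 1.28 in all 11 bins, and around BRIP1 it was between 0.28 and 0.69 in all 14. In 500 kb bins, the level of untreated PEO1 fell from 12.6 reads (bin centred 12.2 Mb from BRCA1) to between 5.68 and 6.82 in the 8 bins centred from 13.2 to 16.8 Mb, which hold RAD51C. PEO4 stayed between 11.6 and 14.5 there. In the bins centred from 17.8 to 19.2 Mb, which hold BRIP1, PEO1 was back at 10.4 to 12.5 while PEO4 was at 15.5 to 18.3. RAD51C thus sat in a run of bins that was lower in PEO1 than its neighbours on both sides, and BRIP1 in one where PEO4 was high. Only the bins around and between these 3 genes were examined. In the bin centred 3.25 Mb from BRCA1 both lines were lower than in the bins beside it, PEO1 at 7.46 and PEO4 at 11.1. PEO4 was also above PEO1 in the bins centred from 1.75 to 5.25 Mb, by a log2 of 0.57 to 0.88. In the bins that hold BRIP1 it was above by 0.54 to 0.62. These are descriptions of bins, and were not tested.

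**Figure D3:**
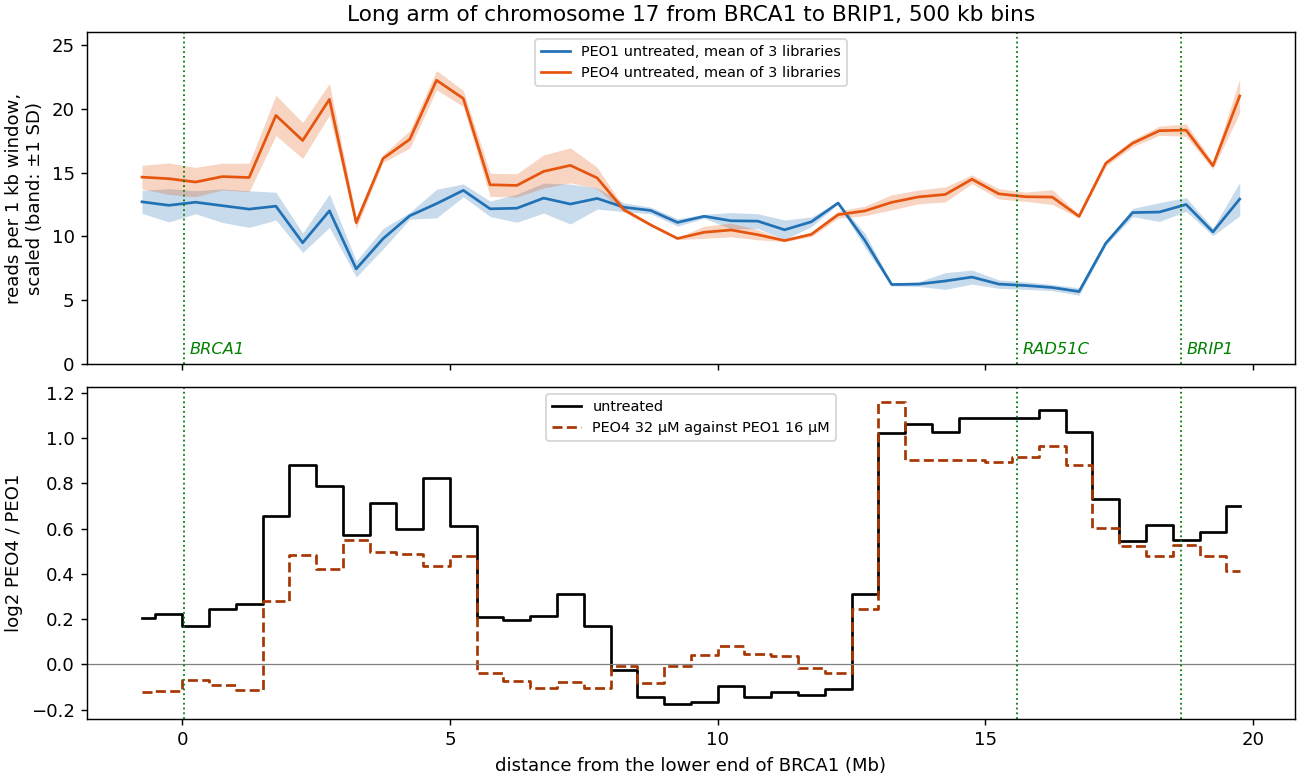
Upper panel, level of untreated PEO1 and PEO4 in 500 kb bins (reads per 1 kb window, mean of 3 libraries, band of 1 SD) against distance from the lower end of BRCA1 in Mb. Lower panel, log2 of PEO4 over PEO1, untreated and treated. PEO1 is near 6 across RAD51C, where PEO4 is near 13, and BRIP1 lies in a region where PEO4 is near 18.

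BRCA1, whose product directs the choice of homologous recombination, did not pass the test between the untreated lines. Its levels were 12.02, 12.16 and 12.05 reads in PEO1 and 12.46, 11.2 and 11.7 in PEO4, which overlapped. The log2 difference was -0.11 (95% interval -0.31 to 0.092, edgeR). Its flanks held 11.5, 13.4 and 13.0 reads per window in PEO1 against 14.7, 13.6 and 15.2 in PEO4, where the lines did not overlap, but the flank difference of 0.12 ± 0.070 was not called (edgeR adjusted p = 0.163). It was called in a fit of the untreated groups alone (adjusted p = 0.0419 in edgeR). The BRCA1 flanks have 4.34 percentage points more GC than the gene, and with an offset for GC content their difference was -0.093. The flanks also hold the pseudogene BRCA1P1, and how reads were shared between it and BRCA1 was not examined.

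BARD1 and PALB2, the partners of BRCA1, had small negative differences whose intervals included 0. BARD1 had 12.5, 10.5 and 11.9 reads in untreated PEO1 and 10.5, 11.5 and 10.7 in untreated PEO4. PALB2 had 11.97, 15.4 and 11.5 in untreated PEO1 and 11.96, 10.4 and 14.9 in untreated PEO4, with SDs of 2.12 and 2.28, the widest of the 10 untreated gene bodies in reads per window. Their log2 differences were -0.17 and -0.14, with 95% intervals of -0.48 to 0.15 and -0.43 to 0.16. The BARD1 flanks held 11.6, 11.7 and 11.8 reads per window in PEO1 against 10.5, 10.2 and 10.0 in PEO4, without overlap. That is a log2 difference of -0.27 ± 0.11 (SE, n = 3 per line), which missed the threshold over all genes (edgeR adjusted p = 0.0764) and passed it without PEO1 16 µM replicate 1 (adjusted p = 0.0205 in edgeR), without PEO4 16 µM replicate 1 (adjusted p = 0.0450) and in a fit of the untreated libraries alone (adjusted p = 0.00201).

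FANCC and FANCD2 were not called. FANCC, a core complex subunit, had 6.48, 6.06 and 6.12 reads in untreated PEO1 and 6.50, 6.76 and 6.27 in untreated PEO4, and its flanks were between 5.94 and 7.72 in all 15 libraries. It was low in both lines, with its surroundings, and its log2 difference was -0.0084 (95% interval -0.21 to 0.19) after TMM scaling. With the library total as scale, as for the levels, the difference was 0.066 and was not called. FANCD2, the ubiquitinated member, had 12.9, 12.3 and 12.2 in untreated PEO1 and 11.4, 11.8 and 12.3 in untreated PEO4 (log2 difference -0.15, interval -0.35 to 0.061). ATM, the break-signalling kinase, had 11.8, 11.6 and 11.5 in untreated PEO1 and 10.2, 11.8 and 12.5 in untreated PEO4 (log2 difference -0.091, interval -0.31 to 0.13).

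FANCA, the other core complex subunit listed, had the widest spread of the 10 relative to its level in untreated PEO1. Its levels were 4.79, 8.01 and 5.87 reads in untreated PEO1 and 7.59, 7.47 and 7.81 in untreated PEO4. The PEO1 libraries ranged widely and overlapped those of PEO4. Among all 15 libraries, its body was highest, at 8.64, in PEO1 16 µM replicate 1, the library with the highest GC slope, and lowest, at 4.57, in PEO4 16 µM replicate 1, the library with the next to lowest slope. The order was not complete, since its next highest body, 8.01 in untreated PEO1 replicate 2, came with a negative slope of -0.098. Its flanks, with 55.0% GC, ran in the same direction, 8.65 and 4.18 in those libraries. The untreated log2 difference of the body was 0.23 (95% interval -0.11 to 0.56, edgeR) and became -0.072 with the GC offset. For the flanks it was 0.24 (interval -0.12 to 0.61) and reversed to -0.31 with the offset (edgeR adjusted p = 0.000201). The flanks of FANCD2 reversed in the same way, from 0.098 to -0.18 (edgeR adjusted p = 0.0227). The sign of the flank difference at both genes, and of the body difference at FANCA, therefore turned with the offset, while the body of FANCD2 kept its sign (-0.15, and -0.16 with the offset).

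None of the 10 gene bodies passed the test for a cisplatin response in either line. In PEO1 at 16 µM the log2 change over untreated ran from -0.13 in BARD1 to 0.16 in RAD51C. In PEO4 it ran from -0.25 in FANCA to 0.15 in BRIP1 at 16 µM, and from -0.13 in FANCA to 0.27 in BRIP1 at 32 µM. Of the 10 genes 0 passed edgeR's test in each of these responses, 0, 0 and 1 had an unadjusted p under 0.05, and 0 passed with DESeq2. Among all genes 1 of 16799 was called in PEO1 (0.00595%) and 0% were called in PEO4 at either dose. An unadjusted p under 0.05 was found in 5.63%, 2.57% and 6.67% of all genes in the same 3 responses.

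The SEs of the responses were between 0.097 and 0.16 (log2). No 95% interval of a response reached below 0.666-fold (FANCA in PEO4 at 16 µM) or above 1.43-fold (BRIP1 in PEO4 at 32 µM). The single unadjusted p under 0.05 was that of BRIP1 in PEO4 at 32 µM, whose levels of 17.4, 22.9 and 21.0 overlapped the untreated levels of 16.9, 18.1 and 18.7. The change was 0.27 ± 0.12 (SE, n = 3 per group, edgeR adjusted p = 0.710), and without PEO4 32 µM replicate 2 it was 0.15. In the flanks 0 of 10 genes passed in the same 3 responses with edgeR or DESeq2, 0% of all genes were called by edgeR, and 0, 0 and 2 of the 10 had an unadjusted p under 0.05. Those 2 were the flanks of BRCA1 and BRIP1 in PEO4 at 32 µM, with log2 changes of -0.18 and 0.11.

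The dose comparison in PEO4 and the differences between the responses of the lines gave the same count. From 16 to 32 µM the 10 log2 changes ran from -0.079 in RAD51C to 0.20 in PALB2. At matched adduct load, the response of PEO4 at 32 µM minus that of PEO1 at 16 µM ran from -0.28 in FANCA to 0.24 in BARD1. At 16 µM in both lines it ran from -0.40 in FANCA to 0.16 in BARD1. In edgeR 0 of 10 genes passed in each of these comparisons, 0 had an unadjusted p under 0.05, 0 passed with DESeq2, and 0% of all genes were called. At matched load the 95% intervals reached from 0.596-fold to 1.62-fold. FANCA at equal dose had the largest value, -0.40 (95% interval -0.86 to 0.075, edgeR adjusted p = 0.721). Its flanks gave the same value, -0.40, and without PEO1 16 µM replicate 1 the body gave -0.27. The libraries at the ends of its range had the highest and the next to lowest GC slopes, and their part in the value was not tested.

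**Figure D4:**
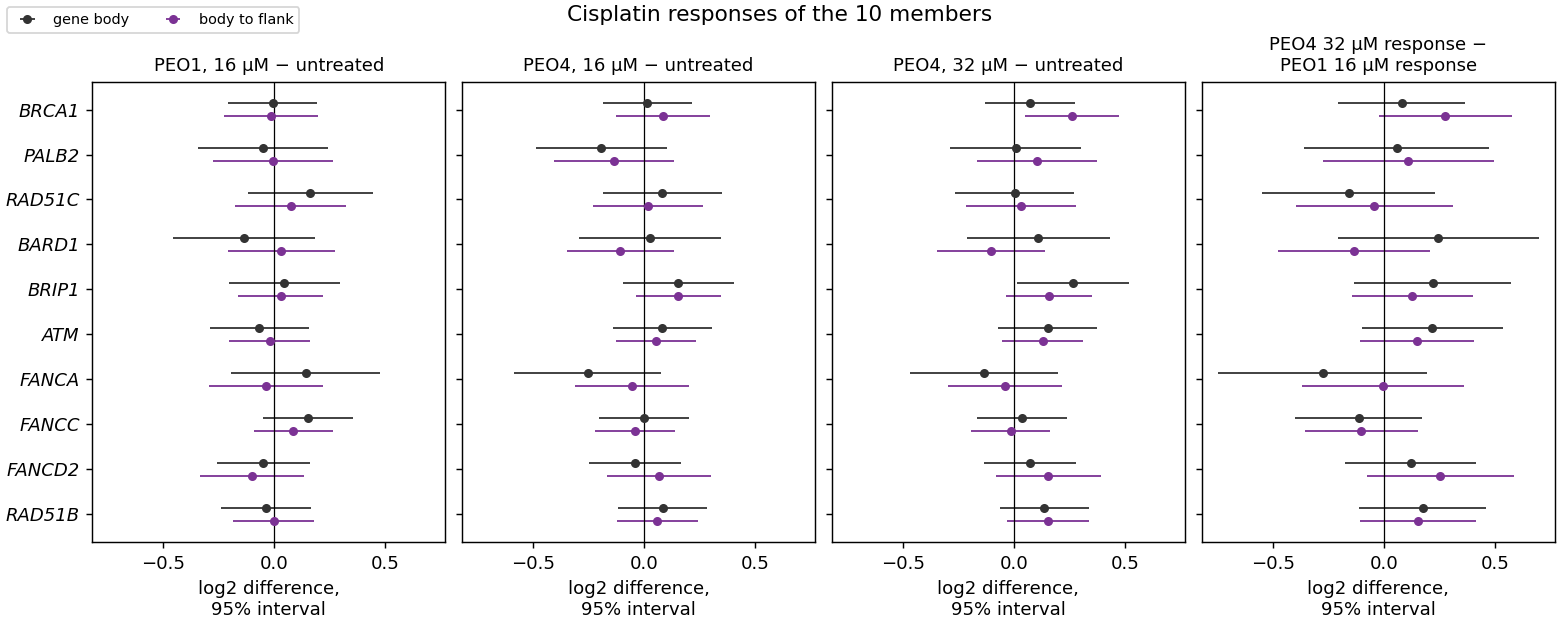
Cisplatin responses of each gene (horizontal axis, log2 difference with its 95% interval), in 4 panels for PEO1 at 16 µM, PEO4 at 16 µM, PEO4 at 32 µM and the PEO4 minus PEO1 difference at matched adduct load. Black points are gene bodies (edgeR) and purple points the body to flank ratio (limma); all but 2 intervals of the 3 response panels include 0, those of BRIP1 (body) and BRCA1 (ratio) in PEO4 at 32 µM.

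The ratio of a gene's level to that of its own flanks removes what the gene shares with its surroundings, including the copies in each line. On the log2 scale it lay between -0.36 and 0.36 in all 10 genes and 15 libraries. RAD51C and BRIP1 did not pass the test between the untreated lines by this measure, with log2 differences of 0.11 (95% interval -0.14 to 0.35) and -0.085 (interval -0.28 to 0.11) in limma. Of the 10 genes 0 were called between the untreated lines (limma, 2 with an unadjusted p under 0.05), where 0.149% of all genes were called, and 0 in any response, where 0.00595% of genes in PEO1 and 0% in PEO4 were called.

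BRCA1 and FANCD2 were the 2 genes with an unadjusted p under 0.05 between the lines. FANCD2 differed by -0.24 (limma adjusted p = 0.599), and by 0.014 with the GC offset. For BRCA1 the log2 ratio was 0.060, -0.13 and -0.11 in untreated PEO1 and -0.23, -0.27 and -0.36 in untreated PEO4. In PEO4 at 32 µM it was -0.25, 0.16 and 0.0029, so that 2 of these 3 libraries stood above all untreated PEO4 libraries and the other within them. The untreated lines differed by -0.23 ± 0.10 (SE, limma adjusted p = 0.577), and PEO4 at 32 µM was 0.26 ± 0.10 above untreated (adjusted p = 0.797 in limma). With the GC offset the difference between the lines was -0.043.

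The transcription starts were examined in 2 kb windows, where reads were few. Raw counts were between 0 and 85 per library. The median coefficient of variation between replicates in edgeR's fit, which leaves out counting noise, was 46.1% over all tested genes. It was 14.8% for gene bodies and 8.31% for flanks. BRIP1 had the highest mean level at its start, 20.0 reads per window, and FANCC the lowest, 4.99, as means over the 15 libraries. In untreated PEO1 FANCD2 (13.8) stood above BRIP1 (13.2), and over all PEO1 libraries RAD51C (4.76) stood below FANCC (5.70). FANCA had no read in 2 libraries and FANCC in 1, and a count of 0 allows up to 3 reads. RAD51C had 4.27, 4 and 2.62 in untreated PEO1 and 7.87, 21.4 and 14.6 in untreated PEO4, which did not overlap. Its log2 difference of 1.66 ± 0.75 (SE, n = 3 per line) was not called over all genes (edgeR adjusted p = 0.386), where 0.522% of genes were called, and in 10 kb around the start it was 1.59 and was called (adjusted p = 7.53e-05 in edgeR).

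In PEO1 at 16 µM the starts of PALB2, BARD1 and FANCC had unadjusted p under 0.05, and 0 of 10 passed after adjustment (edgeR, 0% of all genes called, 6.94% with an unadjusted p under 0.05). PALB2 had 37.7, 11.5 and 8.41 reads there against 3.79, 11 and 2.62 untreated. BARD1 had 33.1, 12.9 and 8.41 against 3.79, 7 and 4.20. FANCC had 16.3, 9.66 and 3.36 against 1.90, 3 and 0. In all 3 genes the highest value was that of PEO1 16 µM replicate 1. Without it the log2 changes of PALB2 and BARD1 went from 1.24 and 1.39 to 0.65 and 0.95, and FANCC then had too few reads to be tested. The FANCC start passed the count filter only with the group in which it was high, so its unadjusted p there carries no weight. In PEO4, 0 of 10 starts were called at either dose in edgeR, where 0% of all genes were called, and 2 and 0 had an unadjusted p under 0.05 at 16 and 32 µM. Those at 16 µM were RAD51C, with 1.07, 8.73 and 3.21 reads against 7.87, 21.4 and 14.6 untreated (log2 change -1.76), and BRIP1, with 18.7, 43.7 and 22.2 against 20.6, 11.9 and 16.5 (log2 change 0.86). The untreated and treated libraries of both genes overlapped.

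**Figure D5:**
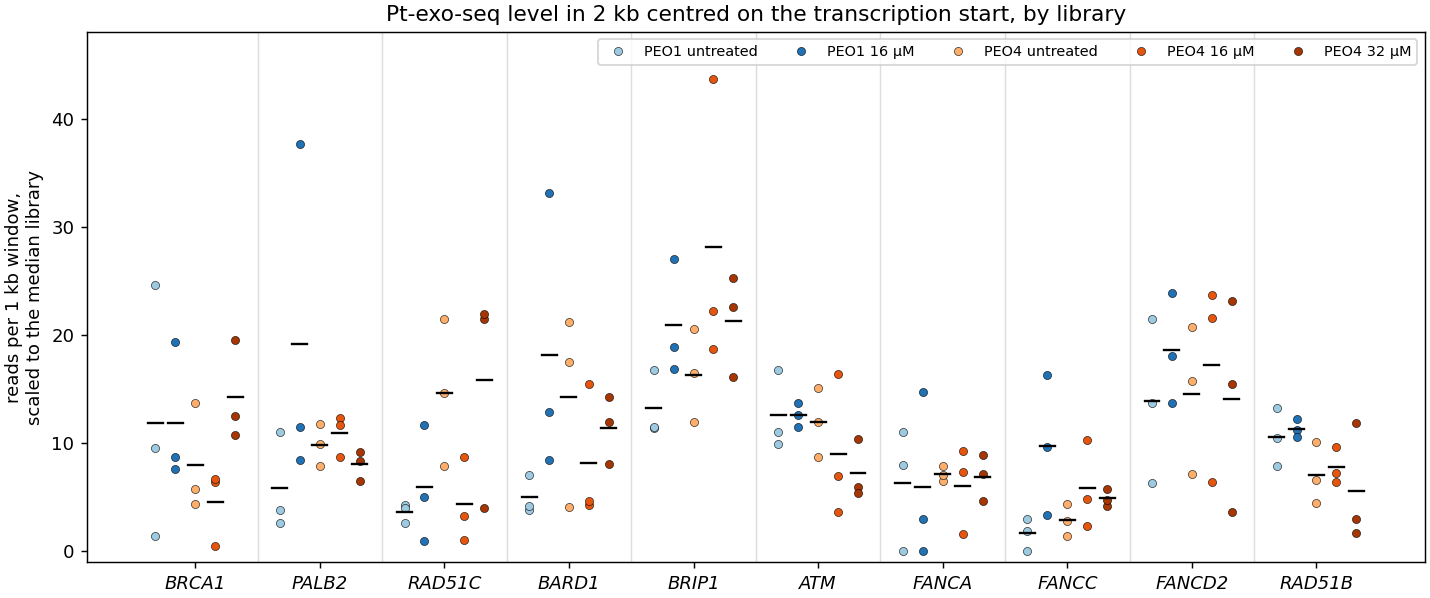
Level in 2 kb centred on each gene's start in every library (vertical axis, reads per 1 kb window scaled to the median library), with groups coloured as in the legend and bars at group means. Libraries of 1 group differ widely, and single high points such as PALB2 at 37.7 and BARD1 at 33.1 in PEO1 16 µM replicate 1 set their group's mean.

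Inside the genes, the windows with the highest mean level were mostly intronic. For 9 of the 10 genes the highest window lay outside the exons of the canonical transcript, and it stood 1.65 (PALB2) to 3.57 (FANCC) times above its gene's level. The BRIP1 window, which overlaps an exon 170 kb from the start, had the highest mean of all, 56.1 reads. Its PEO1 libraries had 30.3, 35 and 57.7 reads without drug and 45.8, 33.1 and 23.5 with it. Its PEO4 libraries had 88.3, 42.9 and 59.4 without drug, 85.4, 72.9 and 55.5 with 16 µM, and 28.7, 85.95 and 96.2 with 32 µM. It was high without cisplatin, and the untreated and treated libraries of each line overlapped.

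The share of adjacent guanines separated the windows of these genes only weakly. The 1786 windows were split within each gene into 3 classes of like size by that share, with mean shares of 7.24%, 9.51% and 12.4%. The richest class stood at 1.08 ± 0.10 times the level of the poorest in untreated PEO1 (SD, n = 3) and at 1.06 ± 0.15 times after treatment. For PEO4 the values were 1.19 ± 0.086 without drug, 1.08 ± 0.13 with 16 µM and 0.976 ± 0.18 with 32 µM. The single libraries ran from 0.793 to 1.26, and the treated and untreated libraries of both lines overlapped. The library with the lowest ratio, PEO4 32 µM replicate 2, had a GC slope of -0.15. The 294 windows that overlap an exon were lower than the other 1492 in 14 of the 15 libraries when pooled over genes. The genes differ in level and in their share of exon windows, and within genes the windows outside exons were higher in 7 of 10, with BARD1, BRIP1 and ATM the other way. Their log2 ratio to the others was between -0.23 and -0.16 in the 3 untreated PEO1 libraries and between -0.14 and -0.052 in the 3 untreated PEO4 libraries. After treatment it was -0.0078, -0.13 and -0.15 in the 3 PEO1 libraries, which did not overlap the untreated ones. In PEO4 it was between -0.13 and 0.040 after treatment, which overlapped the untreated libraries. These ratios were not tested.

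Pooled over the 10 genes, the read sums of the groups overlapped. The gene bodies took 616 ± 20.2 CPM (counts scaled by the library total, SD, n = 3) in untreated PEO1 and 629 ± 21.6 CPM after treatment. They took 631 ± 12.2 CPM in untreated PEO4, 635 ± 13.4 CPM with 16 µM and 659 ± 29.9 CPM with 32 µM. The libraries ran from 600.4 to 685 CPM, and treated and untreated libraries overlapped in both lines. RAD51B supplies 731 of the 1786 windows, and without it the pooled level per window was 10.1 in untreated PEO1 and 11.4 in untreated PEO4, against 11.4 and 11.7 with it. With TMM scaling in addition, the 10 genes had 12.576, 11.203 and 11.165 reads per window in untreated PEO1. In untreated PEO4 they had 11.023, 11.649 and 11.307, so that PEO4 was no longer the higher line. These libraries overlapped. The difference between the lines in the pooled value therefore depends on which genes are in it and on the scaling.

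The other genes of the pathway were taken from a list of 62 (Fanconi, homologous recombination and damage signalling genes). Between the untreated lines 21 of the 60 tested in the gene body were called, 9 higher and 12 lower in PEO4, with a median log2 difference of -0.046, where 21.7% of all genes were called. The Fanconi group had 7 of 17 called, the homologous recombination group 9 of 31 and the damage signalling group 5 of 12, each in both directions. The 8 with the smallest p were FANCB (-1.52), a core complex subunit, BRCC3 (-0.91), a deubiquitinase of the BRCA1-A complex, the nuclease EXO1 (-1.09), the kinase ATR (-0.70), the helicase HELQ (-1.03), RAD50 (0.86), of the MRN complex, the ubiquitin ligase RNF168 (-0.74) and TP53BP1 (-0.55), which opposes end resection. Of these RAD50 alone was higher in PEO4. Their flanks differed in the same direction, for example by -1.17 at EXO1 and 1.00 at RAD50. In the 3 cisplatin responses 0 of the 60 were called in edgeR, with 3, 2 and 6 at an unadjusted p under 0.05. Over all genes 5.63%, 2.57% and 6.67% were under 0.05 in these responses. In the matched and equal-dose differences 0 of the 60 were called, with 8 and 6 under 0.05, against 8.04% and 7.10% of all genes.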

How the data were processed

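The 15 Pt-exo-seq libraries were deposited as raw read counts in 1 kb windows of hg19 that overlap their neighbours. Per the study's methods the authors trimmed reads with BBDuk, aligned them with bowtie2, removed blacklisted regions and removed duplicates with Picard; versions are not given in the sources used here. The deposited counts were summed by window midpoint over the canonical transcript (GENCODE v44lift37), its 250 kb flanks and 2 kb around its start, leaving out chromosome Y. Reads in overlaps count in both windows. Sums were tested with edgeR 4.0.16 (quasi-likelihood, TMM, 15 libraries in 5 groups) over genes with a mean count of at least 50 (10 for starts), and log2 body to flank ratios (0.5 added per window) with limma 3.58.1. Benjamini-Hochberg adjustment covered all genes, with a threshold of 0.05. Scripts were tested on simulated data. Alternatives included DESeq2 1.42.0, other scaling, a GC offset, other flanks and starts, and leaving out each library. The 10 genes were named in every comparison, with at most 8 called pathway genes by smallest p. The genes and lists were chosen with earlier results of these data known. Counts carry no molecular identifiers, so limits cover counting error only. Sequences of single windows are not reported here.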

Additional observations from a re-analysis of the deposited data

How the results depend on the processing

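The line difference of RAD51C kept its direction and its call in the gene body and the flanks under every alternative run. With an offset for GC content the flanks of FANCA turned from higher to lower in PEO4 (-0.31, and -0.31 with the replicate block as well), and so did those of FANCD2 (-0.18 and -0.18), and 5 genes were called in the flanks in place of 2 (4 with the block as well, and 4 when only the groups compared entered the fit, where 11465 of all genes were called in place of 6829). Of 7537 alternative values for the 10 genes, 7281 were classed as unchanged, 239 moved, 9 gained a call, 4 lost one and 4 reversed with a call. Unchanged meant called in both fits in the same direction, or called in neither and within the SE of the main value, whatever the sign. Among the values called in neither fit, 542 changed sign. The cause of these changes was not tested.

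For all genes, the single call in PEO1 gene bodies at 16 µM became 0 with the library total as scale, the replicate block, the GC offset, both together, only the groups compared or windows wholly inside, and 3 with DESeq2. DESeq2 also gave 1 call for PEO4 at 32 µM, 1 at matched load and 2 at equal dose in gene bodies and 3 for PEO1 in flanks, in place of 0, the GC offset gave 1 at matched load, and limma on log2 ratios to untreated gave 2 at equal dose. Starts called between the lines went from 94 to 166 with the library total, 21 with the GC offset, 0 from 1 kb upstream to 100 bp downstream, and 2826 in 10 kb, where 1 of the 10 genes was called. Body to flank ratios called between the lines went from 25 to 10 and 48 with flanks of 100 and 500 kb, 13 with the replicate block and 50 with the GC offset.

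Leaving out 1 library at a time gave 1 to 2 of the 10 genes called between the lines in the gene body. For all genes it gave 0 to 1 calls in PEO1 gene bodies, 5 to 113 starts and 9 to 31 body to flank ratios between the lines, 0 to 2 starts and 1 to 2 ratios in PEO1, 0 to 5 ratios in PEO4 at 32 µM, 0 to 1 starts at matched load, and 0 to 1 starts and 0 to 1 ratios at equal dose.

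The replicate numbers did not pair the libraries. Deviations of same-numbered libraries of a line correlated from -0.45 to 0.19 (mean -0.12 over 12 pairs), and with the replicate block BRIP1 kept its call in the gene body (edgeR adjusted p = 0.0404).
Depth limited the starts, where a count of 0 allows up to 3 reads. Beyond counting noise, libraries of a group varied there by 46.1% in edgeR's fit. In gene bodies the SEs of the responses were between 0.097 and 0.16 (log2).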
